A study of Homo sapiens with 4 samples.

Results

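The J-domain cochaperones were taken as every gene probe of the arrays whose gene name begins with DNAJ, which gave 35 of the 14272 gene names measured, each with 1 probe. K562, a human erythroleukemia cell line, was either treated for 4 h with AC-1041, a compound made for the study, or kept as control, and both RNAs were labelled with different dyes and put on the same array, on 4 two-colour Agilent arrays in all. The treated RNA carried the dye Cy5 on arrays 1 and 2 and the dye Cy3 on arrays 3 and 4. The sample labels call the control cells untreated, whereas the methods of the study name a DMSO control, and the labels state no dose. The methods name quadruplicate samples of treated and control cells without saying which sample went on which array, so p-values measure only the spread between these arrays, which may be technical.

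Proteins of the DNAJ family carry a J domain, a short helical domain with a conserved histidine-proline-aspartate motif, which makes an HSP70 chaperone hydrolyse ATP and close on its client protein. Class A members also hold a glycine-rich stretch and a zinc-binding region, class B members the glycine-rich stretch without the zinc-binding region, and class C members share the J domain alone. Members with their J domain in the cytosol work with HSPA8 and its stress-inducible relatives. Those with it inside the endoplasmic reticulum (ER) work with HSPA5 (BiP), and those of mitochondria with HSPA9 (mortalin). By the number of members on the array, 4 were class A, 11 class B and 20 class C. DNAJA5 is the name in the files of a gene now called DNAJC21 and was counted in class C. By compartment, 16 act in the cytosol or nucleus, 10 in the ER and 4 in mitochondria, and 5 act elsewhere or were left unassigned. The ER members include some, such as DNAJB12, DNAJB14 and DNAJC18, whose J domain faces the cytosol.

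Each value below is the log2 of the treated over the control level, so that 0 means equal levels and a positive value a higher level in treated cells. Of the 35 members, 28 could be tested with limma. The probes of DNAJA4, DNAJB7, DNAJB8 and DNAJC5B were not well above background in either channel of any array. The probes of DNAJB1, DNAJA3 and DNAJC5G had too few unmarked spots to be fitted with a dye term. Of the 28 members tested, 10 had a higher level after treatment, with an adjusted p below 0.05 (Benjamini-Hochberg over all probes), a share of 35.7%, where the share over all 8852 probes tested was 24.3%. In bulk RNA, a change of level per cell and a change in which cells are present cannot be told apart. The level of 3 members was lower, a share of 10.7% against 13% of all probes. After median centring of each array in place of loess, 11 members were higher and 1 was lower, while over all probes the numbers went from 2155 higher and 1152 lower to 2286 and 589. The median of the 28 members was 0.10, and that of all probes was 0.02. A rise of at least 1.8-fold was called for 2 members, DNAJB4 and DNAJB9, a share of 7.14% where all probes gave 2.39%. No member was lower by at least 1.8-fold, also at an unadjusted limma p under 0.05, against 0.271% of all probes. Most members moved little, since 25 of the 28 lay within 1.5-fold of equal levels, 89.3% against 92.8% of all probes.

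The dye orientations differed, and this bears on every value below. Pearson's r of the log2 ratios was 0.81 for arrays 1 and 2 and 0.94 for arrays 3 and 4. For arrays of opposite orientation it ran from -0.29 to -0.12. These values cover the gene probes well above background in 1 or both channels on 2 or more arrays, with marked spots left out. All 4 arrays lay on 1 slide read in 1 scan, with arrays 1 and 2 at position 1 and arrays 3 and 4 at position 2 of the first slide index in the file headers, so that dye orientation and position cannot be told apart. Among negative control spots the SD was 226 to 308 intensity units on arrays 1 and 2 and 27.8 to 40.5 on arrays 3 and 4. With the dye term in the fit, the standard errors and adjusted p-values rest on the difference between arrays of the same orientation. Of the 13 genes chosen as markers of K562, 12 were on the array and 11 of them were well above background in every control channel, the exception being TAL1 with 3 channels. Among the markers of other cell types, 5 were well above background nowhere, and CD3E and CD14 were so in 2 control channels each.

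The largest differences belonged to DNAJB4, DNAJB1, DNAJB9 and DNAJC16, and the first 30 of the 60 bases of each probe are shown because all values of a gene rest on that 1 probe. On the hg18 build used by the files, the probe of DNAJB1 lies on chr19:14486803-14486862 (minus strand), that of DNAJB4 on chr1:78254621-78254680 (plus strand), that of DNAJB9 on chr7:108001751-108001810 (plus strand) and that of DNAJC16 on chr1:15770236-15770295 (plus strand). No annotation of that build was used here. The longest run of bases shared by the probes of any 2 members, on either strand, was 11.
DNAJB1: agcactgtggaacgtctgtaaatatgtttt
DNAJB4: ttcttttgagggttcattaaattgcatgaa
DNAJB9: atttctttcttagttgttggcactcttagg
DNAJC16: attagccatgagaatttggttgtagttttc

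DNAJB4, a cytosolic class B member and a close relative of DNAJB1, had the highest fitted value of the family. Arrays 1 to 4 gave log2 ratios of 1.26, 1.502, 2.89 and 3.24. All 4 arrays were above 0, and both arrays with treated RNA in Cy3 were above both with it in Cy5. In normalized intensity units, the treated channel gave 5512, 7883, 11859 and 16259 on arrays 1 to 4, and the control channel 2297, 2783, 1603 and 1717. The treated and control intensities did not overlap. The mean was 2.22 ± 0.99 (SD, n = 4 arrays), a 4.67-fold difference that ranked 5 of 8852 probes from the top, with a limma standard error of 0.082 and an adjusted p of 4.2e-06. The dye term was also past the threshold, with an adjusted p of 9.1e-05, and without a dye term the adjusted p of the difference was 0.071.

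DNAJB1, the main stress-inducible HSP40 of the cytosol, was bright in both channels but was measured by unmarked spots on arrays 2 and 4 only. Feature Extraction marked its spots on arrays 1 and 3 as non-uniform. The unmarked spots gave log2 ratios of 2.34 on array 2 and 1.76 on array 4, and the marked ones 1.32 on array 1 and 1.52 on array 3. All 4 values were above 0, and the 2 marked ones were the lowest. The treated intensities were 108847, 93957, 121442 and 142124 on arrays 1 to 4 and the control intensities 43450.1, 18614, 42309.7 and 41889, so the channels did not overlap, and the low control value of array 2 stood beside its high ratio. The mean of the unmarked arrays was 2.05 ± 0.41 (SD, n = 2), a 4.14-fold difference that could not be tested with a dye term. With the marked spots kept the value was 1.69 and limma gave an adjusted p of 0.0012. With unmarked spots alone, limma gave an adjusted p of 0.074 without a dye term. Averaging arrays 1 and 4 and arrays 2 and 3 left only array 4 and array 2 for DNAJB1. That alternative therefore averaged nothing for this gene and adds no evidence on it.

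DNAJB9 (ERdj4), a class B member of the ER that binds HSPA5 and unfolded proteins, was even across the arrays. Arrays 1 to 4 gave log2 ratios of 1.08, 1.14, 1.30 and 1.32. The arrays of both orientations gave nearly the same value, the highest and the lowest being 0.24 apart. Treated intensities of 6659, 8785, 7935 and 8879 on arrays 1 to 4 stood above control intensities of 3150.2, 3988, 3222 and 3568. The mean was 1.21 ± 0.12 (SD, n = 4 arrays), a 2.31-fold difference ranked 71 of 8852, with a limma standard error of 0.064 and an adjusted p of 1.1e-05. It was the single member of the family that stayed past the threshold without a dye term, at an adjusted p of 0.027, and it passed in 16 of 16 alternatives. DNAJB1, DNAJB4 and DNAJB9 stand in a list of ER stress genes that the study chose on these arrays, so that list is not independent evidence of their direction. For DNAJB1 the study also reported quantitative PCR, with a higher level after treatment in K562 and in the other cell lines it followed.

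DNAJC16, a membrane-bound class C member placed in the ER, was the fourth with a difference over 1.5-fold. Its log2 ratios were 0.76, 0.84, 0.43 and 0.54 on arrays 1 to 4. All 4 were above 0, and here the arrays with treated RNA in Cy5 were the higher ones, opposite to DNAJB4. Treated intensities were 8412, 10443, 7149 and 8929 and control intensities 4957, 5847, 5322 and 6158 on arrays 1 to 4. The mean was 0.64 ± 0.19 (SD, n = 4 arrays), a 1.56-fold difference ranked 434 of 8852, with a limma standard error of 0.065 and an adjusted p of 0.0002. The adjusted p was 0.092 without a dye term, the 1 alternative of 16 in which the call was lost.

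Upstream sequences of DNAJB1, DNAJB4 and DNAJB9, for their differences, and of DNAJB6 and DNAJC10, for the elements found in them, are shown because heat shock factor and the ER stress factors are known to act through short elements near the start sites of chaperone genes. RefSeq promoter windows of GRCh38.p14, from 250 bases before a start site to 50 after it, were matched by symbol for 33 of the 35 members, in 43 windows, and were searched on both strands. Positions count the base before the start site as -1. Percentages are shares of windows. A member counts if any of its windows holds a match, so its count cannot be set directly against them. The heat shock element, GAANNTTC followed directly by NNGAA, stood in windows of DNAJA1 and DNAJB6, against 0.49% of all 35116 windows. In DNAJA1 it was GAACTTTCCAGAA at 4, after the start site, and in DNAJB6 GAACCTTCGCGAA at -131. The XBP1-type element TGACGTGG stood in DNAJC10 alone, as its reverse complement at -125, against 0.729% of all windows. The amino acid response element TGATGNAAT stood in DNAJA4 alone, against 0.991%. The ER stress element, CCAAT and CCACG with 9 free bases between them, with 0.0769% of all windows, and the cAMP response element TGACGTCA, with 1.85%, stood in no window of a member. The parts of the heat shock element that hold 2 of its 3 units were searched after these results were known, and both overlap the whole element. GAANNTTC, in 6.77% of all windows, stood in 6 members and was found in DNAJB1 at -77 and at -47 of 1 start site. It also stood at 2 of another DNAJB1 start site, and the last DNAJB1 window held no match. TTCNNGAA, in 7.74%, stood in 4 members and was found in DNAJB4 at -98 of 1 start site. The other DNAJB4 window held no match, and the DNAJB4 stretch printed below is the one with the match. A match is a description of letters and says nothing of whether a factor binds there. The 250 bases before 1 start site of each gene follow, with all matches in capitals: DNAJB1 at chr19:14518398-14518647 (minus strand), DNAJB4 at chr1:78004689-78004938 (plus strand), DNAJB6 at chr7:157336754-157337003 (plus strand), DNAJC10 at chr2:182716007-182716256 (plus strand) and DNAJB9, with no match, at chr7:108569624-108569873 (plus strand).
DNAJB1: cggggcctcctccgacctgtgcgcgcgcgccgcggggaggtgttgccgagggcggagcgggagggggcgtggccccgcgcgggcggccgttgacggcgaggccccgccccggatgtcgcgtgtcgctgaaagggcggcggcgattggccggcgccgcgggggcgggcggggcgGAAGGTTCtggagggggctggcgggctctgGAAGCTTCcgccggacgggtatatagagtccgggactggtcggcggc
DNAJB4: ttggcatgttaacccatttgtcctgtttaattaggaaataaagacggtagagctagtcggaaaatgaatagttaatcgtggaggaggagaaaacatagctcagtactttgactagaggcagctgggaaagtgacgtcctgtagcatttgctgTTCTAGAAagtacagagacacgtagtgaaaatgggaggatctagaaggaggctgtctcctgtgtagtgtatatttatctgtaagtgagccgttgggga
DNAJB6: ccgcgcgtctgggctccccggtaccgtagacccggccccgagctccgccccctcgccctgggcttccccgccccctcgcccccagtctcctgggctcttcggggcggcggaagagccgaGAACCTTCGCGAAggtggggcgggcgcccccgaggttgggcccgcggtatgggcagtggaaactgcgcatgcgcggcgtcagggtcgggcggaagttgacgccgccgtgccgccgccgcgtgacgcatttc
DNAJC10: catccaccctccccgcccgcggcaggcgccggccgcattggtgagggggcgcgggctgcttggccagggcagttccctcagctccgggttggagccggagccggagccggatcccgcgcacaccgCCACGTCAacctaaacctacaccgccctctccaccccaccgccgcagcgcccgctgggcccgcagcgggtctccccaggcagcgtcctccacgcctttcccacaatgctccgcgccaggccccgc
DNAJB9: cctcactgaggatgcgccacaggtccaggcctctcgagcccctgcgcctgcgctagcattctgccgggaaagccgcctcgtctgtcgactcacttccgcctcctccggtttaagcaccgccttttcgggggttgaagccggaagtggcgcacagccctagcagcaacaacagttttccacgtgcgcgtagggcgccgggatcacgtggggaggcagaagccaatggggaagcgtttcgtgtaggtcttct

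Of the 10 members of the ER, all could be tested, 6 were higher in treated cells (60%, against 24.3% of all probes) and none was lower (against 13%), also at an unadjusted limma p under 0.05. Their median was 0.28 and their values ran from -0.06 to 1.21. Besides DNAJB9 and DNAJC16, the members called higher were DNAJB12, DNAJB14, DNAJC3 and DNAJC18. DNAJB12, a membrane protein of the ER that works with cytosolic HSP70 in the disposal of misfolded membrane proteins, had values of 0.31, 0.12, 0.34 and 0.59 on arrays 1 to 4, with a mean of 0.34 ± 0.20 (SD, n = 4) and a limma adjusted p of 0.0082. DNAJC3 (p58IPK), a lumenal cochaperone of HSPA5 also known as an inhibitor of the kinase PERK, had 0.04, 0.43, 0.33 and 0.47, with a mean of 0.32 ± 0.20 (SD, n = 4) and a limma adjusted p of 0.017. Both were above 0 on all 4 arrays, but on array 2 neither channel of DNAJC3 was well above background. The call of DNAJB12 was lost without array 4 (limma adjusted p of 0.11), and that of DNAJC3 without array 3 (0.072) and without array 4 (0.15).

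DNAJB14 and DNAJC18, which like DNAJB12 span the ER membrane with the J domain toward the cytosol, differed between the dye orientations. DNAJB14 had -0.31, 0.10, 0.80 and 0.88 on arrays 1 to 4, a mean of 0.37 ± 0.57 (SD, n = 4) and a limma adjusted p of 0.0091. On arrays 1 and 2 neither channel of DNAJB14 was well above background, so its values there are near the floor. DNAJC18 had -0.47, -0.45, 0.98 and 0.89, a mean of 0.24 ± 0.81 (SD, n = 4) and a limma adjusted p of 0.021. DNAJC18 was below 0 on both arrays with treated RNA in Cy5 and above 0 on both with it in Cy3, so its mean is the balance of opposite values. Without array 3 the limma adjusted p was 0.058 for DNAJB14 and 0.16 for DNAJC18, and without array 4 it was 0.093 and 0.12.

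The other ER members did not pass the threshold. DNAJC10 (ERdj5), a disulfide reductase that prepares proteins for export from the ER, had 0.21, 0.23, 0.06 and 0.27, with a mean of 0.19 ± 0.09 (SD, n = 4) and a limma adjusted p of 0.056. It was above 0 on all 4 arrays and passed in 4 of 16 alternatives. DNAJC1 (ERdj1), which sits at ribosomes on the ER membrane, had 0.16 (called with median centring alone, at 0.23 with a limma adjusted p of 0.044), and DNAJC14, an ER membrane protein that takes part in the export of receptors, had 0.07. DNAJB11 (ERdj3), an abundant lumenal partner of HSPA5, had -0.04, -0.22, -0.12 and 0.13, with a mean of -0.06 ± 0.15 (SD, n = 4) and a limma adjusted p of 0.56. Its arrays lay on both sides of 0, in contrast to the 4 of DNAJB9, but no test of the difference between members was made.

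**Figure D1:**
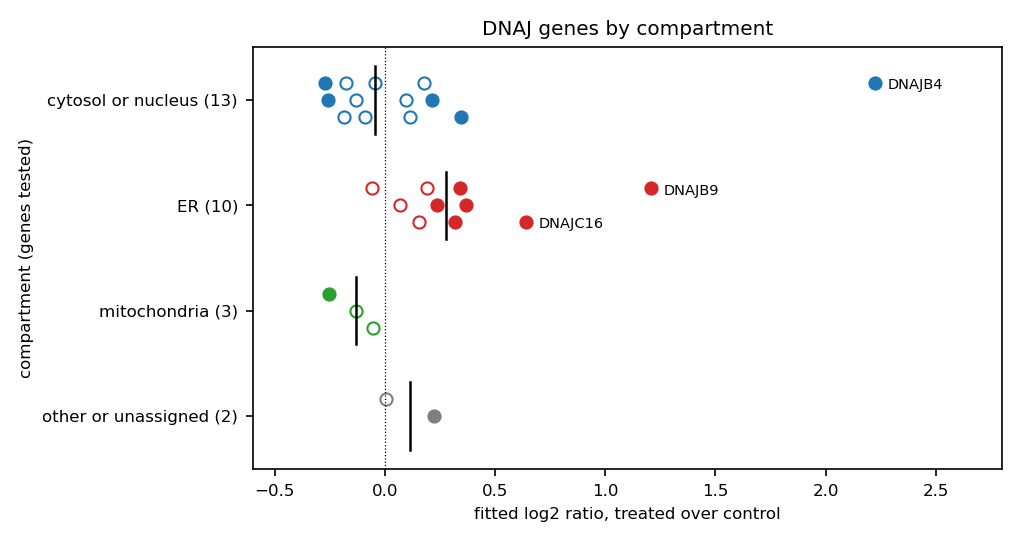
Fitted log2 ratio, treated over control, for the 28 members tested, by compartment, with filled points for an adjusted p under 0.05 and a vertical bar at each median. The ER median is 0.28, the median of the cytosol or nucleus is -0.05, and DNAJB4 stands alone at 2.22.

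Of the 16 members of the cytosol or nucleus, 13 could be tested, and 3 were higher and 2 lower in treated cells, with a median of -0.05. These shares of 23.1% and 15.4% were near the 24.3% and 13% of all probes. Besides DNAJB4, the members called higher were DNAJA1 and DNAJB5. DNAJA1 (HDJ2), the abundant class A partner of HSPA8, had -0.17, -0.15, 0.98 and 0.73 on arrays 1 to 4, a mean of 0.35 ± 0.59 (SD, n = 4) and a limma adjusted p of 0.0058. It was below 0 with treated RNA in Cy5 and above 0 with it in Cy3, and without array 3 the limma adjusted p was 0.080. DNAJB5, a class B relative of DNAJB1, was well above background in neither channel of arrays 1 and 2. It had 0.14, 0.22, 0.37 and 0.12 on arrays 1 to 4, a mean of 0.21 ± 0.11 (SD, n = 4) and a limma adjusted p of 0.043. It was above 0 on all 4 arrays but passed in 3 of 15 alternatives, the limma adjusted p being 0.069, 0.30 and 0.10 without array 2, 3 and 4.

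The members lower in treated cells were DNAJA5 (DNAJC21), which takes part in the making of the large ribosomal subunit, and DNAJC9, a nuclear cochaperone that also binds histones. DNAJA5 had -0.87, -0.94, 0.28 and 0.43 on arrays 1 to 4, a mean of -0.27 ± 0.73 (SD, n = 4) and a limma adjusted p of 0.013. Arrays of opposite orientation were on opposite sides of 0, and the limma adjusted p was 0.13 without array 3 and 0.074 without array 4. DNAJC9 had -0.18, -0.40 and -0.27 on arrays 2 to 4, its spot on array 1 being marked as non-uniform. Its plain mean was -0.28 ± 0.11 (SD, n = 3), and its fitted value was -0.26 with a limma adjusted p of 0.0498. With array 2 alone in its orientation, the spread of DNAJC9 in that fit came from arrays 3 and 4 only. The marked spot lay above 0, and with marked spots kept DNAJC9 was at -0.19 with a limma adjusted p of 0.078. No member called lower was below 0 on all 4 arrays, while 6.13% of all probes were called lower and below 0 on all 4.

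DNAJB6, a class B member that holds back protein aggregation, and the other cytosolic members did not pass. DNAJB6 had -0.66, 0.87 and 1.16 on arrays 2 to 4, with its spot on array 1 marked, and a fitted value of 0.18 with a limma adjusted p of 0.18. Its dye term was past the threshold, with an adjusted p of 0.00032. Since its value of array 1 was left out, averaging pairs of arrays moved it, to 0.56 with a limma adjusted p of 0.044 for arrays 1 and 3 and arrays 2 and 4, and to 0.63 with 0.13 for arrays 1 and 4 and arrays 2 and 3. DNAJA2, the second major class A partner of HSPA8, had 0.09, and DNAJB2, a neuronal class B member with ubiquitin-binding motifs, had 0.11. DNAJC7 and DNAJC12, cochaperones of steroid receptors and of aromatic amino acid hydroxylases, had -0.19 and -0.13. Without array 1, DNAJC7 was at -0.28 and called lower with a limma adjusted p of 0.0074, and without array 2 and array 3 it was at -0.092 and -0.10. DNAJC8 and DNAJC17, which are linked to splicing, had -0.18 and -0.05, and DNAJC6 (auxilin), which uncoats clathrin vesicles, had -0.09. Without array 1, limma also called DNAJB2 higher, at 0.21 with an adjusted p of 0.035, and DNAJC8 lower, at -0.23 with an adjusted p of 0.020, and DNAJC8 passed in 4 of 16 alternatives in all. The sign of DNAJC17 turned with median centring, to 0.03.

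In mitochondria, 3 of 4 members could be tested, none was higher, also at an unadjusted limma p under 0.05, and DNAJC15 was lower. These shares of 0% and 33.3% rest on 3 members, where all probes gave 24.3% higher and 13% lower. DNAJC15 and DNAJC19, relatives of the yeast cochaperones of the protein import motor, had fitted values of -0.25 and -0.13. DNAJC15 had -0.28, -0.60, 0.03 and -0.15 on arrays 1 to 4 and a limma adjusted p of 0.034, which became 0.094, 0.097 and 0.25 without array 2, 3 and 4. With median centring DNAJC15 was at -0.12 with a limma adjusted p of 0.32, and it passed in 7 of 16 alternatives. DNAJC11, linked to the shape of the inner membrane, had -0.05, and 0.02 with median centring. DNAJA3 (Tid1), the class A cochaperone of HSPA9, was marked on arrays 1, 2 and 3 and had -0.17 on array 4. Its marked spots gave 0.51 on array 1, 0.67 on array 2 and -0.32 on array 3, so the orientations were on opposite sides of 0. Its treated intensities were 48933.5, 38999, 29252 and 27599 and its control intensities 34329.5, 24512, 36484 and 30999 on arrays 1 to 4.

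Of the 5 members with another or no assigned place, DNAJC13 and DNAJC5 could be tested. DNAJC13 (RME-8), which works on endosomes, was called higher with 0.57, 0.35, -0.01 and -0.01 on arrays 1 to 4, a mean of 0.22 ± 0.28 (SD, n = 4) and a limma adjusted p of 0.033. The difference lay in the arrays with treated RNA in Cy5, and the limma adjusted p was 0.077, 0.17 and 0.19 without array 1, 3 and 4. DNAJC5, the cysteine string protein of secretory vesicles, had 0.01. DNAJC5G, a testis relative of DNAJC5, was marked on arrays 1 and 3, where its spots gave 0.32 and -0.57, and had 0.09 on array 2 and -0.24 on array 4. Its treated intensities were 2352, 963, 724 and 349 and its control intensities 1885, 904, 1076 and 413.

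By class, to be read against 24.3% higher and 13% lower over all probes, 1 of the 2 class A members tested was higher and none lower, with a median of 0.22. Of the 8 class B members tested, 5 were higher (62.5%) and none lower, with a median of 0.28. At an unadjusted limma p under 0.05 also 0 members of either class were lower. Of the 18 class C members tested, 4 were higher (22.2%) and 3 lower (16.7%), shares near those of all probes, with a median of -0.05. These medians are descriptions, and no test between classes or compartments was made. DNAJB9, DNAJB12 and DNAJB14, called higher, count both in class B and in the ER. The shares of class B and of the ER are therefore not separate results.

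The sign of a member's value often depended on the dye orientation. Of the 28 members, 16 had means of opposite sign with treated RNA in Cy5 and in Cy3, a share of 57.1% where all probes gave 61.7%. These included 5 of the 13 called members, namely DNAJA1, DNAJB14, DNAJC18, DNAJC13 and DNAJA5. Over all probes, 2155 were called higher and 1152 lower, and 1132 of these called probes had means of opposite sign. The dye term passed for 12 members, 42.9% against 58.2% of all probes. Of the members called higher, 6 were above 0 on all 4 arrays, DNAJB4, DNAJB9, DNAJC16, DNAJB12, DNAJC3 and DNAJB5, which is 21.4% of the members tested where 13% of all probes were called higher and above 0 on all 4. Neither channel was well above background for DNAJB5 on arrays 1 and 2 and for DNAJC3 on array 2. With 1 array left out, 11 and 9 members were called higher without array 1 and 2, and 4 without array 3 or array 4. The numbers called lower were 5, 1, 0 and 0 in the same order. The calls over all probes also fell without array 3 or 4, with 2590, 1994, 1241 and 1008 higher and 1469, 1261, 439 and 283 lower in the same order.

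The proteins that J-domain members act on were looked at beside them, as a list of 27 HSP70 and HSP110 chaperones and HSP70 cochaperones. Of these, 26 were on the array, 21 could be tested, 11 were higher (52.4%, against 24.3% of all probes) and 2 lower (9.52% against 13%) in treated cells, with a median of 0.24. A rise of at least 1.8-fold was called for 6 of them, 28.6% against 2.39% of all probes. HSPH1 and HSPA4L, of the HSP110 group that exchanges the nucleotide of HSP70, reached 1.85 ± 0.33 and 1.84 ± 1.11 (SD, n = 4 arrays). HSPH1 also stands among the genes that the study chose to follow, and its quantitative PCR gave a higher level in treated K562 cells. BAG3, which links HSP70 to autophagy, reached 1.75 ± 0.33, and GRPEL2, a nucleotide exchange factor of mitochondrial HSPA9, reached 0.88 ± 0.20 (SD, n = 4). HSPA1L, a near relative of the inducible HSP70 genes, reached 1.58 ± 0.22 and HSPA13 (STCH in the files) 1.201 ± 0.88 (SD, n = 4). All 6 were above 0 on all 4 arrays. HSPA1A, the inducible HSP70 that DNAJB1 serves, was marked on arrays 1 and 3 and had 1.83 on array 2 and 1.14 on array 4, and its near-identical copy HSPA1B has no probe of that name.

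The resident HSP70 of each compartment was called higher with values that split by dye. HSPA8 of the cytosol had 0.98, 1.18, -0.18 and 0.12 on arrays 1 to 4, a mean of 0.53 ± 0.66 (SD, n = 4) and a limma adjusted p of 0.0012. HSPA5 of the ER had -0.27, -0.20, 0.76 and 0.90, a mean of 0.30 ± 0.62 and a limma adjusted p of 0.009. HSPA9 of mitochondria had -0.68, -0.39, 1.02 and 1.02, a mean of 0.24 ± 0.91 and a limma adjusted p of 0.031. HSPA8 was higher with treated RNA in Cy5, and HSPA5 and HSPA9 were higher with it in Cy3. The 2 partners called lower were HSPA14, at -0.29, and GRPEL1, the housekeeping counterpart of GRPEL2, at -0.36, and both were below 0 on all 4 arrays. Of the J-domain proteins with other names, HSCB, which serves mitochondrial iron-sulfur cluster assembly, had 0.19 with a limma adjusted p of 0.054, and GAK, a relative of auxilin, had -0.05 with a limma adjusted p of 0.67.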

How the data were processed

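Spot intensity and local background intensity of both dyes were deposited by the authors for every array, as Agilent Feature Extraction 9.5.1.1 gave them, besides processed intensities and a log10 ratio made from them. The deposited table of the series holds that log10 ratio as treated over control. Here intensities were background-corrected with normexp (offset 50), normalized within each array by loess (span 0.3) and turned to log2 ratios. Spots marked non-uniform or population outlier were left out, and probes were tested if 2 or more arrays had 1 or both channels well above background. limma 3.58.1 in R 4.3.3 fitted a treatment and a dye term, with Benjamini-Hochberg adjustment over all 8852 probes. The number of arrays limits the precision. The members and the gene lists were chosen with earlier results of these data known. Members past the threshold with at least 1.5-fold, and bright members left out of the fit, were given in full, and likewise for partner genes, with the HSP70 of each compartment in any case. Names of 12002 of 14297 probes, 31 members included, came through transcript accessions of a RefSeq table of GRCh38.p14, and 4 members kept the name in the files. The 16 alternatives changed the background correction, the normalization, the filters, the marked spots, the dye term, the prior, the array weights or the arrays used. The limma step was tested on simulated data. Some results of the gene lists are not reported here.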

Additional observations from a re-analysis of the deposited data

How the results depend on the processing

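Without a dye term, the numbers called became 1 member higher, 0 lower and 1 higher by at least 1.8-fold, and 3 partners higher and 0 lower. Over all probes that fit called 52 higher and 4 lower. Feature Extraction's processed signals gave 5 members higher, as did the deposited series values (5). Over all probes the calls higher also fell, from 2155 with the main settings to 1577 and 1581. Members lower numbered 1 with median centring and 1 with arrays 1 and 4 and arrays 2 and 3 averaged. Over all probes, 589 and 593 were lower in the same order, against 1152 with the main settings. Partners lower numbered 1 with each of the 2 ways of averaging pairs of arrays and 1 with both channels well above background. With 1 array left out, from 4 to 11 members were higher, from 0 to 5 lower and always 2 higher by at least 1.8-fold, the median ran from 0.08 to 0.15, and from 8 to 14 partners were higher and from 0 to 2 lower. Uncalled members that turned sign were DNAJC11 (0.021) and DNAJC17 (0.026) with median centring, and with processed signals and the series values DNAJC5 (-0.11 and -0.11) and DNAJC6 (0.011 and 0.010). With 1 array left out, DNAJB11 ran from -0.12 to 0.0032, DNAJC14 from -0.025 to 0.17, DNAJC17 from -0.10 to 0.0099 and DNAJC5 from -0.060 to 0.070. No called member turned sign. The cause of these changes was not tested. Each ratio already paired treated with control RNA of the same array, and no further replicate block was fitted because the labels number the arrays of 1 group only. The wider background of arrays 1 and 2 limits what dim members can show.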
